A study of Cavia porcellus with 10 samples.

Results

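The genes described here are claudins and their partners of the tight junction in the cervix of the guinea pig (Cavia porcellus). They were chosen by name from a list of 10 names, and 9 of these have a row among the 25028 genes of the deposited table: CLDN1, CLDN3, CLDN4, CLDN5, CLDN7, CLDN8, CLDN10, CLDN11 and TJP1. OCLN, which encodes occludin, has no row under that name and was not analysed here. The tissue was the vaginal portion of the cervix of Hartley animals, an outbred laboratory stock. There were 3 non-pregnant females taken at entry into estrus (NP), 3 females at mid-pregnancy (MT, 43.6 ± 0.5 days) and 4 in late pregnancy that were not in labor (LT, 65.2 ± 1.2 days). Gestation ages were estimated from the fetuses after death, so the MT and LT groups are groups by stage and not by a known mating date. The study compared the stages to follow the cervix from estrus toward birth in an animal whose circulating progesterone stays high until labor, and the same 3 comparisons are made here for the tight junction: NP with MT, MT with LT, and NP with LT.

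Tight junctions are the contacts near the apical border of epithelial and endothelial cells that close the space between neighboring cells. Claudins are small membrane proteins that span the membrane several times, and their extracellular loops meet those of the next cell. Some of them mainly tighten the barrier, others form pores that let certain ions pass, and each tissue combines its own set. TJP1, also called ZO-1, is a scaffold in the cytoplasm that holds claudins and occludin and ties them to the actin skeleton. In the lower genital tract the epithelium is squamous toward the vagina and mucus-secreting in the cervical canal, and its junctions hold the barrier between the lumen and the stroma.

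Expression is given in TPM, a relative abundance of transcripts that is adjusted for gene length, so that levels of different genes can be set side by side. The libraries held between 18730665 and 27881572 counted reads. Differences between stages are from limma on log2(TPM + 1) over 12645 genes with a stage mean of at least 3 TPM, and adjusted P-values are over all of these genes. A gene is said to have risen or fallen when its adjusted P was under 0.05. The TPM values of an animal sum to a fixed total, and the median log2 fold change of the tested genes was -0.14 for NP to MT, -0.16 for MT to LT and -0.28 for NP to LT. Each result was therefore also computed after median-ratio scaling, which brings these medians to -0.02, 0.00 and 0.00, and with edgeR on the read counts. Of the genes called lower or higher from NP to LT, 78.9% were lower on the TPM scale and 50.2% after median-ratio scaling.

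One NP library stood apart from the others of its stage. NP replicate 1 had a summed TPM of 5017 for 9 markers of squamous epithelium, against 1779 and 1506 in the other NP animals, and 30766 for 8 markers of smooth muscle, against 10523 and 8168. Several claudins were also far from their level in the other NP animals in this library. The differences of the claudins were therefore also computed without it. For MT against LT, leaving it out changes only the spread that the 3 stages share in the fit, and not the difference itself. The marker sums were uneven in the other stages too. MT replicate 1 had 2611 TPM of squamous markers, against 706 and 1118 in the other MT animals. Its fibroblast markers summed to 10165 TPM, against 5758 and 5379. LT replicates 3 and 4 had 38141 and 39435 TPM of smooth muscle markers, against 19050 and 19044 in LT replicates 1 and 2. The cervix is a mixed tissue and was sequenced in bulk, so fewer cells of a type and less RNA per cell cannot be told apart. Epithelial cells were present in every library: EPCAM, an adhesion protein of epithelia, was between 269 and 418 TPM and CDH1, E-cadherin, between 129 and 197 TPM.

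All 9 genes had a mean above 3 TPM in each stage, the operational threshold of expression, and the lowest stage mean was that of CLDN8 in LT at 4.57 TPM. CLDN1 was the most abundant of them in every stage by a wide margin. It ranked 172nd among all genes of the table in NP, 40th in MT and 47th in LT. CLDN7 came next in every stage, at 175, 201 and 236 TPM. It overlapped with CLDN4 in NP, and with CLDN3 in MT, whereas in LT all 4 animals had more CLDN7 than the highest CLDN4 value. CLDN8 was the least abundant in every stage. Among the less abundant genes most neighbors in the order overlapped: in NP and in LT no pair from CLDN10 downward was separated (CLDN10, CLDN5, CLDN11, CLDN8), and in MT CLDN11 and CLDN5 had the same mean within 0.1 TPM.

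**Figure D1:**
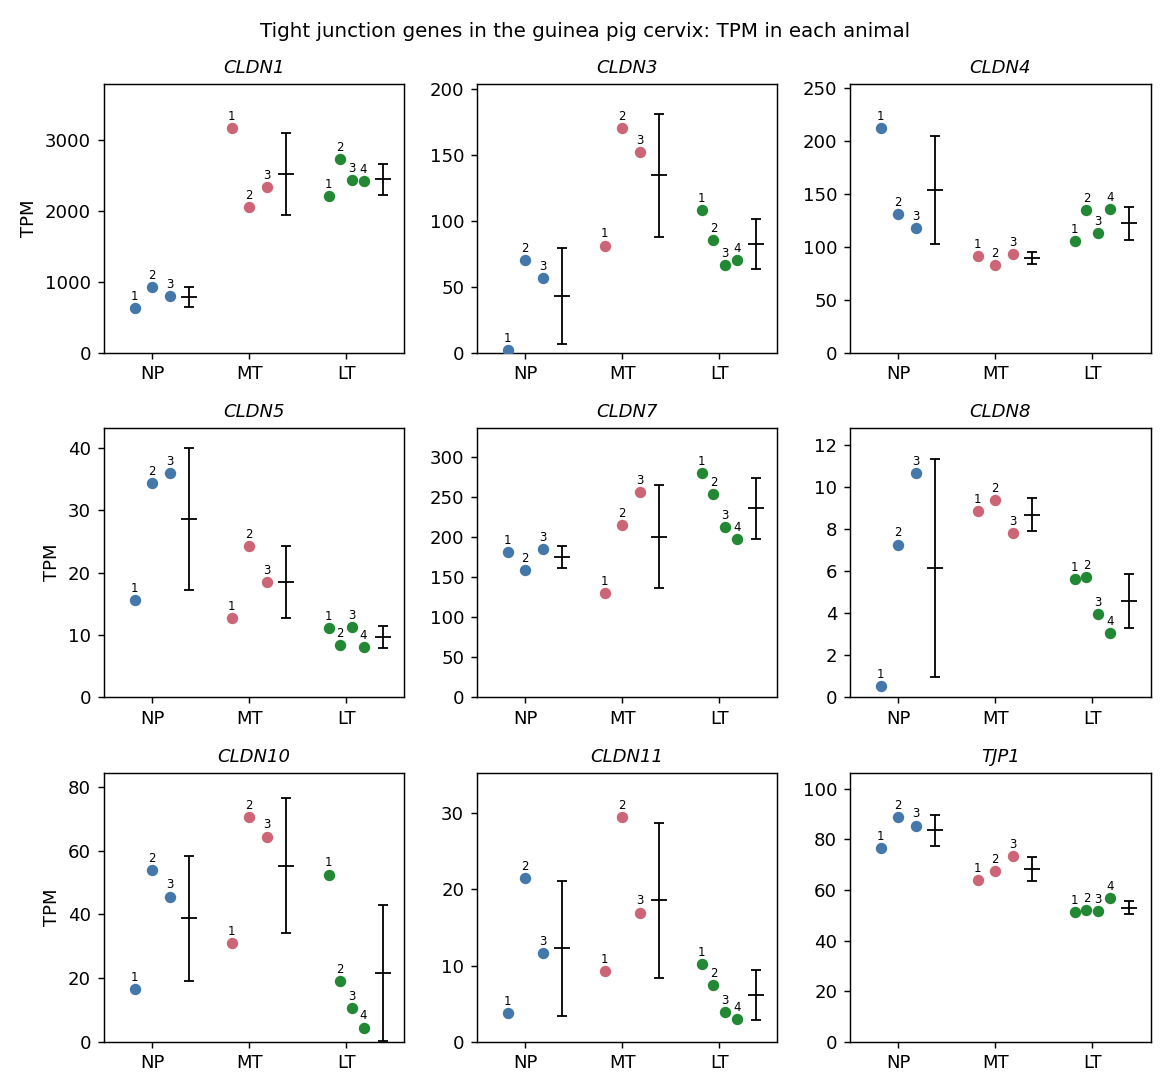
TPM (vertical axes, linear, from 0) of the 9 tight junction genes in each animal of the 3 stages. Points are animals with their replicate numbers, and the black mark and bar beside them are the stage mean ± SD. CLDN1 lies between 633 and 922 TPM in NP and at 2053 TPM or more in every pregnant animal, while TJP1 steps down over the stages with no overlap.

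CLDN1 rose at mid-pregnancy and stayed at that level. Its protein is the main barrier claudin of squamous epithelia. In NP its values were 633, 922 and 804 TPM, in MT 3166, 2053 and 2334 TPM and in LT 2206, 2736, 2443 and 2418 TPM. Every pregnant animal was more than 2-fold above the highest NP animal, and the MT and LT animals overlapped. The mean went from 786 ± 145 TPM (SD, n = 3) in NP to 2518 ± 579 TPM (SD, n = 3) in MT. This is 3.18-fold higher on the log2(TPM + 1) scale, a log2 fold change of 1.67 (standard error 0.18, limma adjusted P = 0.000739). After median-ratio scaling it was 1.8, with edgeR 1.82, and without NP replicate 1 it was 1.52 (limma adjusted P = 0.00107). With a mean of 2451 ± 218 TPM (SD, n = 4) in LT the difference from NP was 1.65 (standard error 0.17, limma adjusted P = 0.000134). Between the pregnant stages it was -0.02 (standard error 0.17, limma adjusted P = 0.948), and 0.15 after median-ratio scaling. The exact permutation test over the 3 stages on square-root TPM gave P = 0.0148 for CLDN1, unadjusted.

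CLDN3 and CLDN4, claudins of simple and glandular epithelia that are close relatives, differed in opposite directions from NP to MT. With all animals only the difference of CLDN4 passed, and not under every alternative. For CLDN3 the NP animals had 1.83, 70.3 and 56.7 TPM, the MT animals 81.1, 169.9 and 152 TPM and the LT animals 108, 85.3, 66.6 and 70.2 TPM. The first of these values rests on 28 reads, and it is the lowest CLDN3 value by far. The mean of the other NP animals was 34.7 times that of NP replicate 1. Each MT value was above each NP value, and the log2 difference was 2.51 (standard error 0.99), which did not pass the test (limma adjusted P = 0.103). Without NP replicate 1 the difference was smaller and passed, at 1.01 (limma adjusted P = 0.0374). From MT to LT CLDN3 differed by -0.65 (standard error 0.93, limma adjusted P = 0.619, and 0.0719 without NP replicate 1). LT differed from NP by 1.86 (limma adjusted P = 0.116), by 0.35 without NP replicate 1 (limma adjusted P = 0.319) and by 2.68 without NP replicate 2, where it passed (limma adjusted P = 0.0471).

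The difference of CLDN4 between NP and MT had the opposite sign to that of CLDN3. The NP animals had 212, 131 and 118 TPM, the MT animals 91.7, 83.2 and 93.4 TPM and the LT animals 105, 135, 113 and 136 TPM. The MT animals were the lowest of all and overlapped with neither of the other stages. From NP to MT CLDN4 fell by 0.73 on the log2 scale (standard error 0.20, limma adjusted P = 0.0301), and without NP replicate 1 by 0.47 (limma adjusted P = 0.0230). This call was lost after median-ratio scaling, with a difference of -0.60 (limma adjusted P = 0.116), with edgeR (adjusted P = 0.0937), and without any one of MT replicates 1, 2 and 3 (limma adjusted P = 0.0581, 0.0860 and 0.0765). LT was higher than MT by 0.44 (standard error 0.18, limma adjusted P = 0.0959, exact permutation P = 0.0571), and without NP replicate 1 it passed (limma adjusted P = 0.0111). Over the whole span it was -0.29 on the TPM scale, 0.01 after median-ratio scaling and 0.33 after that scaling without NP replicate 1, which passed (limma adjusted P = 0.0488). With edgeR without NP replicate 1 CLDN4 was likewise higher in LT than in NP, by 0.38 (adjusted P = 0.0337). In NP replicate 1 the ratio of CLDN4 to CLDN3 was 116, while the other NP animals had a mean ratio of 1.97. The mean was 0.745 in MT and 1.55 in LT.

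CLDN7, a claudin found along the sides of epithelial cells as well as at the junction, was the steadiest of the claudins in NP. The NP animals had 182, 159 and 185 TPM, the MT animals 130.5, 215 and 257 TPM and the LT animals 280.2, 254, 212 and 197 TPM. The MT animals spanned almost the whole range, and each LT value exceeded the NP values. The difference of LT from NP was 0.42 (standard error 0.21, limma adjusted P = 0.121, exact permutation P = 0.0571). It passed without MT replicate 1 (limma adjusted P = 0.0291), after median-ratio scaling at 0.71 (limma adjusted P = 0.0228), and with edgeR at 0.73 (adjusted P = 0.0200). The differences from NP to MT, 0.14 (standard error 0.23), and from MT to LT, 0.28 (standard error 0.21), did not pass (limma adjusted P = 0.687 and 0.341). Without NP replicate 1 CLDN7 in LT differed from NP by 0.44 (limma adjusted P = 0.151) and in MT by 0.17 (limma adjusted P = 0.644).

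CLDN8, CLDN10 and CLDN11 were variable between animals of one stage. CLDN8 tightens epithelia against ions, CLDN10 is known as a pore former, and CLDN11 is best known from myelin and the testis barrier. For CLDN10 the NP animals had 16.7, 54.1 and 45.6 TPM, the MT animals 31.0, 70.5 and 64.5 TPM and the LT animals 52.6, 19.0, 10.6 and 4.45 TPM. Its LT values ranged over more than 10-fold, and LT replicate 1 was the exception among them, at the level of the NP and MT animals. The log2 difference of LT from MT was -1.72 (standard error 0.70, limma adjusted P = 0.0868). Without LT replicate 1 it was -2.30 and passed (limma adjusted P = 0.0191), and likewise from NP to LT (-1.72, limma adjusted P = 0.0303, against -1.14 and 0.189 with all animals). Without NP replicate 1 neither passed (limma adjusted P = 0.0650 from MT to LT and 0.0850 from NP to LT).

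CLDN11 had 3.75, 21.5 and 11.7 TPM in NP, 9.30, 29.4 and 17.0 TPM in MT and 10.2, 7.43, 3.91 and 3.02 TPM in LT. All stages overlapped, and 3 of the 4 LT animals were below the lowest MT animal. The difference from MT to LT was -1.44 (standard error 0.56, limma adjusted P = 0.0775), and it passed without NP replicate 1 (limma adjusted P = 0.0313), as did that from NP to LT at -1.36 (limma adjusted P = 0.0437). CLDN8 had 0.512, 7.25 and 10.7 TPM in NP, 8.83, 9.36 and 7.80 TPM in MT and 5.60, 5.69, 3.94 and 3.03 TPM in LT, and the NP value of 0.512 rests on 8 reads. The LT values were all under the lowest MT value (exact permutation P = 0.0286, the smallest that 3 against 4 animals can give), while NP spanned both. The log2 difference from MT to LT was -0.82 (standard error 0.57, limma adjusted P = 0.295), and its adjusted P was 0.0128 without NP replicate 1. The sign of CLDN8 in LT against NP turned with that animal, from 0.05 (limma adjusted P = 0.947) to -0.85 without it (limma adjusted P = 0.0116). In MT against NP, CLDN8, CLDN10 and CLDN11 differed by 0.87, 0.57 and 0.69 with all animals and by -0.02, 0.07 and 0.08 without NP replicate 1, and none passed.

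In each stage the animal with the highest summed TPM of the squamous markers had the lowest CLDN5, CLDN10 and CLDN11. These animals were NP replicate 1 (5017 TPM), MT replicate 1 (2611 TPM, against 706 and 1118 in the other MT animals) and LT replicate 4 (5517 TPM, against 2717 to 4670). CLDN4 was highest in that animal in NP and in LT, and CLDN1 was highest in it only in MT. CLDN3, CLDN7, CLDN8 and TJP1 were each lowest in that animal in 2 of the 3 stages. The same animals also had the lowest summed TPM of the endothelial markers in their stage, at 322, 319 and 178. The 9 squamous markers with a row include TP63, a transcription factor of basal squamous cells, at 25.5 to 54.0 TPM over all animals. KRT14 and PERP made up most of the squamous sums of these 3 animals. KRT14 had 2825, 1142 and 2803 TPM in them and PERP 907, 858 and 1745 TPM. IVL was highest in NP replicate 1 (118 TPM) but not in MT replicate 1 (2.29 TPM), and in LT replicate 4 it was the lowest of LT (0.185 TPM). TGM1 was highest in LT replicate 2 among the LT animals. Each of the other squamous markers was highest in these 3 animals within their stages. Of the 9, 0 rose and 2 fell from NP to MT, 1 rose from MT to LT, and 1 rose and 2 fell from NP to LT. Without NP replicate 1 these counts were 0 and 2, 6 and 1, and 4 and 1. The part of the squamous and endothelial shares in the claudin values was not tested.

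**Figure D2:**
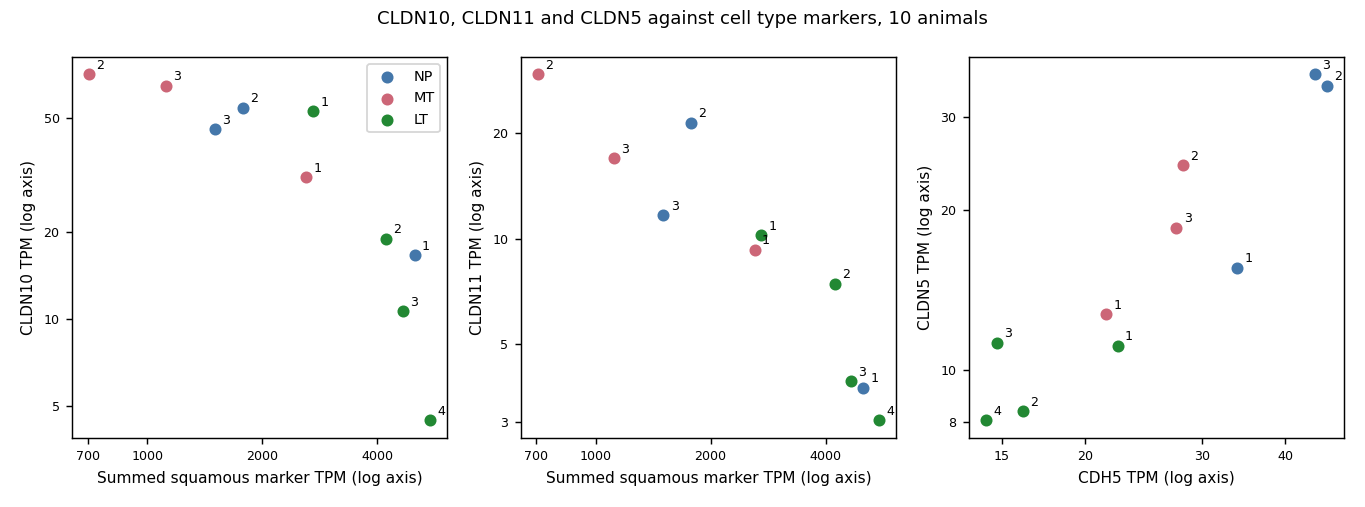
TPM of CLDN10 (left) and CLDN11 (middle) against the summed TPM of 9 squamous epithelium markers, and of CLDN5 (right) against CDH5, a cadherin of endothelium, with all axes logarithmic. Each point is 1 of the 10 animals, colored by stage and labeled by replicate. LT replicate 4 and NP replicate 1, with 5517 and 5017 TPM of squamous markers, are at or near the bottom for CLDN11, and CLDN5 is highest in the NP animals with the most CDH5.

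CLDN5, the dominant claudin of endothelial cells, fell over pregnancy. The NP animals had 15.6, 34.3 and 36.0 TPM, the MT animals 12.7, 24.3 and 18.5 TPM and the LT animals 11.1, 8.36, 11.3 and 8.04 TPM. All LT animals were below all MT and all NP animals, and MT and NP overlapped through NP replicate 1. The mean went from 28.7 ± 11.4 TPM (SD, n = 3) in NP to 9.70 ± 1.73 TPM (SD, n = 4) in LT, which is -1.40 on the log2 scale (standard error 0.30, limma adjusted P = 0.00344). After median-ratio scaling it was -1.12 (limma adjusted P = 0.00746), and without NP replicate 1 it was -1.77 (limma adjusted P = 0.000307). For MT to LT the difference of -0.84 (standard error 0.30) missed the threshold (limma adjusted P = 0.0574, exact permutation P = 0.0286) and passed without NP replicate 1 (limma adjusted P = 0.0114) or MT replicate 1 (limma adjusted P = 0.0399). For NP to MT it was -0.56 (limma adjusted P = 0.236), and -0.93 without NP replicate 1 (limma adjusted P = 0.0206).

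Most markers of endothelium were lower in LT, as CLDN5 was. Of 11 tested, 1 fell from NP to MT, 10 from MT to LT and 10 from NP to LT, and 1, 8 and 9 did so after median-ratio scaling. Of all tested genes 12.2%, 22.7% and 41.9% fell on the TPM scale. From MT to LT CLDN5 itself did not pass. From NP to MT the means of KDR and SOX17 went up, from 23.0 to 27.2 TPM and from 69.5 to 87.5 TPM, and those of the other markers went down. The summed TPM of the 11 markers was 322 to 441 in NP, 319 to 376 in MT and 178 to 258 in LT. CDH5, VE-cadherin of the endothelial junction, had 33.9, 46.3 and 44.4 TPM in NP, 21.5, 28.1 and 27.5 TPM in MT and 22.4, 16.2, 14.7 and 14.2 TPM in LT, and it fell from NP to LT by 1.26 on the log2 scale (limma adjusted P = 0.000412). The ratio of CLDN5 to CDH5 was 0.671 ± 0.186 in NP, 0.710 ± 0.139 in MT and 0.586 ± 0.122 in LT (SD, n = 3, 3 and 4), with overlap between all stages. Exact permutation tests of this ratio gave P = 0.9 from NP to MT, 0.286 from MT to LT and 0.514 from NP to LT. The part of the endothelial share in the CLDN5 values was not tested.

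TJP1 fell in each step on the TPM scale, and its coefficient of variation was the lowest of the 9 genes in NP (7.45%) and in LT (4.82%). The NP animals had 76.7, 88.7 and 85.5 TPM, the MT animals 63.8, 67.6 and 73.3 TPM and the LT animals 51.1, 52.2, 51.7 and 56.7 TPM. No stage overlapped with another, and the exact permutation test over the 3 stages gave P = 0.000476, the smallest it can give here. The first step was -0.29 on the log2 scale (standard error 0.09, limma adjusted P = 0.0490), the step from MT to LT was -0.36 (standard error 0.08, limma adjusted P = 0.0124) and both together were -0.65 (standard error 0.08, limma adjusted P = 0.000315). After median-ratio scaling these became -0.17, -0.19 and -0.36, with limma adjusted P of 0.195, 0.0872 and 0.00462. With edgeR they were -0.16, -0.18 and -0.34, with adjusted P of 0.266, 0.138 and 0.00973. The fall from NP to LT thus passed on these scales, whereas neither single step passed after median-ratio scaling or with edgeR. For the first step the call was also lost without any one of the animals other than NP replicate 1 (limma adjusted P of 0.0581 to 0.152).

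**Figure D3:**
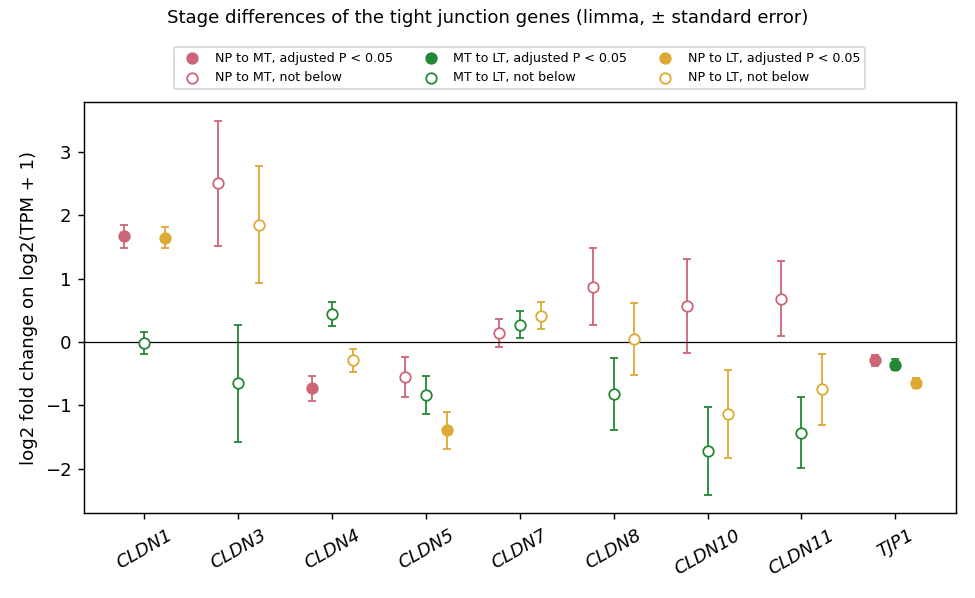
Log2 fold change (vertical axis, on log2(TPM + 1), limma) of the 9 genes in the 3 comparisons, with bars of 1 standard error. Filled points have an adjusted P under 0.05 over all genes. CLDN1 is near 1.67 in both comparisons with NP and near 0 from MT to LT, and TJP1 is filled and negative in all 3.

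Over the 9 genes, 1 rose (CLDN1) and 2 fell (CLDN4 and TJP1) from NP to MT, where 18.5% of all tested genes were called, 6.27% higher and 12.2% lower. From MT to LT 1 fell (TJP1), against 29.4% of all genes, 6.73% higher and 22.7% lower. From NP to LT 1 rose (CLDN1) and 2 fell (CLDN5 and TJP1), against 53.1%, with 11.2% higher and 41.9% lower. The stages did not overlap for 4 of the 9 genes in each comparison, against 34.9%, 46.3% and 52.4% of all tested genes, and a share of 4 in 9 lies near these. The median log2 fold change of the 9 genes was 0.57, -0.65 and -0.29, beside -0.14, -0.16 and -0.28 for all tested genes, and without NP replicate 1 it was 0.07, -0.65 and -0.71, beside -0.20, -0.16 and -0.35. After median-ratio scaling, and likewise with edgeR, the counts were 1 higher from NP to MT (CLDN1), 0 from MT to LT, and 2 higher (CLDN1 and CLDN7) and 2 lower (CLDN5 and TJP1) from NP to LT, where 18.1%, 29.4% and 49.7% of all genes were called after the scaling and 17.1%, 27.4% and 47.2% with edgeR. Without NP replicate 1 the counts were 2 higher and 3 lower, 1 higher and 4 lower, and 1 higher and 4 lower, at 33.0%, 42.1% and 61.1% of all genes. When that library was left out after median-ratio scaling they were 2 and 0, 1 and 3, and 3 and 2, at 20.6%, 38.2% and 53.2%.

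Since 19 claudins have a row in the table, the share of each in their summed TPM can be given. Their sum in NP, MT and LT was 1260 ± 168, 3059 ± 448 and 2949 ± 216 TPM (SD, n = 3, 3 and 4). CLDN1 made up 62.1% ± 3.32 of it in NP, 81.7% ± 6.60 in MT and 83.1% ± 2.78 in LT, and the NP animals (58.6% to 65.2%) did not overlap with the pregnant animals (76.9% to 89.2%). The share of CLDN4 was 12.7% ± 6.0 in NP, 2.95% ± 0.319 in MT and 4.15% ± 0.437 in LT, with no overlap between any stages. That of CLDN7 was 14.2% ± 2.79, 6.80% ± 2.72 and 8.03% ± 1.38, although its mean TPM was not lower in the pregnant stages. Exact permutation tests gave P = 0.0286 from NP to LT for each of these shares and for the sum, and P = 0.1 from NP to MT, in both cases the smallest possible. The shares are parts of one sum, so the rise of CLDN1 by itself lowers the shares of CLDN4 and CLDN7. Their P-values are therefore not separate results and do not show that CLDN4 or CLDN7 fell. Of the 11 claudins outside the list, 10 were below 3 TPM in every stage and together with CLDN12 they made up at most 1.42% of the sum in an animal. CLDN12 had 11.4 ± 2.79, 13.2 ± 1.68 and 11.2 ± 1.02 TPM and passed in no comparison with limma (adjusted P of 0.402, 0.318 and 0.973).

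**Figure D4:**
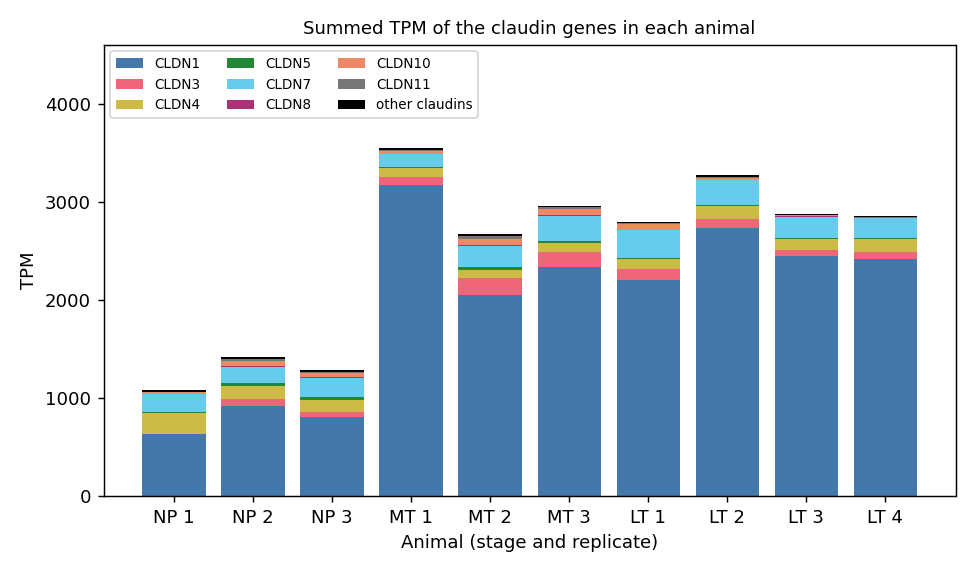
Summed TPM (vertical axis, linear, from 0) of the 19 claudin genes in each of the 10 animals, stacked by gene. The sum is between 1081 and 1414 TPM in the NP animals and between 2668 and 3549 TPM in the pregnant animals, and CLDN1 (bottom segment) goes from at most 922 TPM to at least 2053 TPM.

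Set against markers of epithelium in the same library, CLDN1 gave an answer that depended on the marker. Its ratio to CDH1 was 5.37 ± 1.49 in NP, 14.4 ± 2.77 in MT and 13.7 ± 0.456 in LT, and its ratio to EPCAM 2.66 ± 0.349, 6.71 ± 1.47 and 6.23 ± 0.582, with no overlap between NP and either pregnant stage. Its ratio to KRT7, a keratin of simple epithelia that itself went from 295 to 827 and 776 TPM on average, was 3.08 ± 1.42, 3.10 ± 0.998 and 3.15 ± 0.164, and the stages overlapped (exact permutation P of 1, 0.914 and 0.914). To the summed TPM of the 10 general epithelial markers, which KRT7 is part of, it was 0.594 ± 0.185, 1.41 ± 0.336 and 1.36 ± 0.0622, with NP apart from both. The last 2 ratios were chosen after the values were seen. For CLDN7 the ratios to EPCAM overlapped between all stages, at 0.598 ± 0.0754, 0.535 ± 0.168 and 0.598 ± 0.0806, whereas those to KRT7 were 0.662 ± 0.252, 0.239 ± 0.0554 and 0.304 ± 0.0479, with NP above both. CLDN4 per CDH1 was 1.01 ± 0.186, 0.513 ± 0.0445 and 0.680 ± 0.0555, with no overlap. TJP1, which endothelial and stromal cells express as well, had ratios to EPCAM of 0.284 ± 0.00901, 0.182 ± 0.0114 and 0.135 ± 0.0102, again with no overlap, while its ratio to CDH1 overlapped between NP (0.442 to 0.661) and MT (0.350 to 0.457) (SD, n = 3, 3 and 4, for all of these). Of the 10 epithelial markers with a row, 2 rose and 2 fell from NP to MT, 1 rose from MT to LT, and 3 rose and 2 fell from NP to LT. ELF3 and CDH3 were lower in pregnancy, unlike KRT7. Their means in NP, MT and LT were 185, 83.9 and 105 TPM for ELF3 and 164, 59.3 and 51.8 TPM for CDH3. No ratios to ELF3 or CDH3 were computed. The summed TPM of the 10 markers in NP, MT and LT was 1227 to 1641, 1679 to 1922 and 1744 to 1964. Of 8 markers of mucus-secreting epithelium tested, 6 rose and 1 fell from NP to MT, and CLCA1, a secreted protein of mucous cells, went from 1.59 to 204 TPM on average. The part of the epithelial composition in the CLDN1 values was not tested.

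Other genes of the tight junction were read from a list of 57 names, of which 51 have a row and 40 were tested. From NP to MT 4 rose and 6 fell, from MT to LT 2 rose and 8 fell, and from NP to LT 9 rose and 16 fell. Of all tested genes 18.5%, 29.4% and 53.1% were called in these comparisons. Those called higher were 6.27%, 6.73% and 11.2%, and those called lower 12.2%, 22.7% and 41.9%. The median log2 fold changes of the 40 genes were -0.08, -0.18 and -0.19, beside -0.14, -0.16 and -0.28 for all tested genes. After median-ratio scaling the counts were 5 and 3, 5 and 6, and 15 and 11, and with edgeR 6 and 2, 5 and 6, and 16 and 12, so that which direction prevailed from NP to MT and from NP to LT depended on the scaling.

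The proteins of the corners where 3 cells meet and the other MARVEL proteins, which are relatives of occludin, had 2 of 4 tested genes higher from NP to MT, 0 called from MT to LT and 4 higher from NP to LT. MARVELD2 (tricellulin) had 9.66, 12.1 and 10.3 TPM in NP, 16.7, 18.6 and 17.3 TPM in MT and 14.3, 15.4, 15.2 and 16.6 TPM in LT, so that every pregnant animal was above every NP animal. It rose by 0.67 from NP to MT (log2, standard error 0.11, limma adjusted P = 0.00368). ILDR1, which recruits tricellulin to these corners, rose by 0.96 from NP to MT (standard error 0.20, limma adjusted P = 0.0100) and by 0.77 from NP to LT (limma adjusted P = 0.00644), with means of 12.3, 24.3 and 21.1 TPM. From NP to LT all 4 tested genes of this group rose on the TPM scale and after median-ratio scaling: MARVELD2 by 0.49, MARVELD3 by 0.76, LSR by 0.39 and ILDR1 by 0.77. Of all tested genes 6.27% were higher from NP to MT and 11.2% from NP to LT on the TPM scale. After median-ratio scaling 3128 of the 12645 tested genes were higher from NP to LT. The stage means of ILDR2, the remaining member of the group, were under 3 TPM, and edgeR, which tested it, called it lower from NP to LT (adjusted P = 0.0203).

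Among the scaffolds, MPDZ, which carries many PDZ domains, fell by 0.54 from NP to MT (limma adjusted P = 0.0104), and MAGI3 fell by 0.48 (limma adjusted P = 0.0469), a call that was lost after median-ratio scaling (limma adjusted P = 0.152) and without any one animal other than NP replicate 3 (limma adjusted P of 0.0504 to 0.129).

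In the polarity complexes, which place the junction along the cell, PRKCZ, an atypical protein kinase C, rose by 0.54 from NP to MT (limma adjusted P = 0.0235) and by 0.62 from NP to LT (limma adjusted P = 0.00302). The first call was lost without NP replicate 3, MT replicate 2 or MT replicate 3 (limma adjusted P = 0.0580, 0.0687 and 0.0801). PARD6G, its adaptor, fell by 0.54 from NP to MT (limma adjusted P = 0.0153) but not after median-ratio scaling (limma adjusted P = 0.0821) or without MT replicate 3 (limma adjusted P = 0.0627). CRB3, the Crumbs protein of epithelia, rose by 0.33 from MT to LT (limma adjusted P = 0.0223), and RAB13, a small GTPase that brings junction proteins to the membrane, rose by 0.44 (limma adjusted P = 0.00603). For CRB3 the call was lost without MT replicate 2, MT replicate 3 or LT replicate 2 (limma adjusted P = 0.0836, 0.0634 and 0.0560).

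JAM2, JAM3 and ESAM, adhesion molecules known from endothelial junctions, fell, as CLDN5 did. JAM2 fell by 0.98 between MT and LT (standard error 0.24, limma adjusted P = 0.0160) and by 1.34 between NP and LT (limma adjusted P = 0.00159), with means of 32.8, 25.1 and 12.4 TPM. JAM3 fell by 0.69 from NP to MT (limma adjusted P = 0.0155) and, over both steps, from 29.3 to 12.5 TPM (limma adjusted P = 0.000307). ESAM fell by 0.65 in the later step (limma adjusted P = 0.0141) and by 1.09 between NP and LT (limma adjusted P = 0.000494). Of the 8 junctional adhesion molecules tested, the 3 that fell from NP to LT were these, on the TPM scale and after median-ratio scaling. No other was called on the TPM scale, whereas after median-ratio scaling CXADR, IGSF5 and CLMP were higher, by 0.40, 0.68 and 0.76 (limma adjusted P = 0.000853, 0.0301 and 0.0218). Of all tested genes 41.9% were lower from NP to LT on the TPM scale, and 3 of 8 lies near this share. Calls at 1 step were lost for JAM2 without MT replicate 2 or 3 (limma adjusted P = 0.0700 and 0.0501), for ESAM without MT replicate 2 (limma adjusted P = 0.0599) and for JAM3 without NP replicate 3 (limma adjusted P = 0.0506). F11R (JAM-A), the member that epithelia carry, had means of 187, 140.3 and 158 TPM and passed in no comparison with limma (adjusted P of 0.160, 0.472 and 0.303).

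Among the regulators, AMOT and AMOTL1, angiomotin proteins that link junctions to growth control, fell from MT to LT. AMOTL1 had 67.3, 72.0 and 57.3 TPM in NP, 52.3, 50.3 and 48.2 TPM in MT and 27.5, 27.6, 27.5 and 28.2 TPM in LT, and the LT animals lay within 1 TPM of each other. AMOTL1 fell from NP to MT by 0.37 on the log2 scale (limma adjusted P = 0.0231), a call that was lost after median-ratio scaling (limma adjusted P = 0.136). Its difference was -0.83 between MT and LT (standard error 0.09, limma adjusted P = 0.00162) and -1.20 between NP and LT (limma adjusted P = 4.22e-05). AMOT fell by 0.90 from MT to LT (limma adjusted P = 0.00660).

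**Figure D5:**
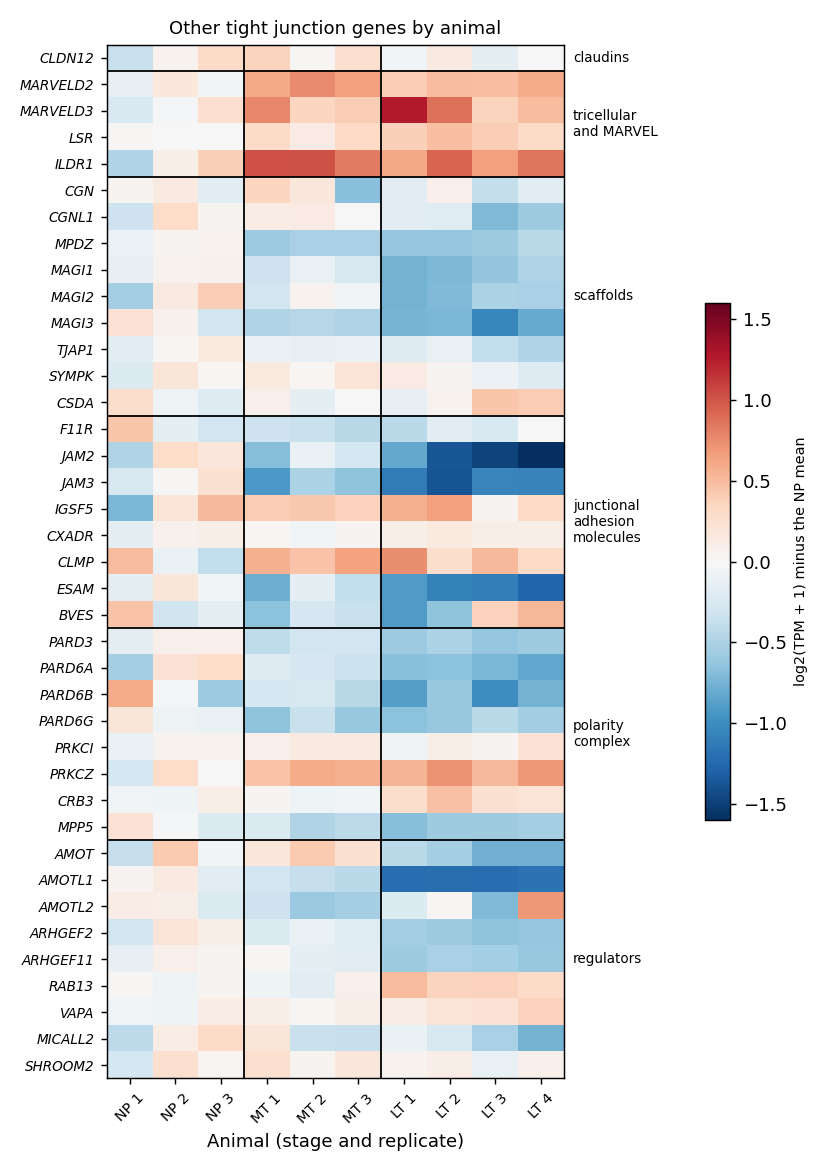
Color map of log2(TPM + 1) minus the NP mean for 39 of the other tight junction genes that were tested (rows, grouped by role) in the 10 animals (columns), with red for higher and blue for lower. The MARVEL and tricellular genes are red in the pregnant animals, and JAM2, JAM3, ESAM and AMOTL1 are darkest blue in LT.

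For each of the 9 genes the most similar profiles over the 10 animals were looked up among 9409 named genes whose mean reached 10 TPM in a stage, by the Pearson r of log2(TPM + 1). These animals share their stages, so that any gene that differs by stage in the same way scores high, and the values are descriptive. The gene most like CLDN1 was ERN2 (r = 0.99), a stress sensor of the endoplasmic reticulum in mucous cells, at 0.255, 41.7 and 29.5 TPM in NP, MT and LT, followed by MRPL43 (r = 0.987). For CLDN3 the nearest was SLC26A4, an anion exchanger, with r = 0.981, which dropped to 0.805 without NP replicate 1, and then CAMKMT (r = 0.976, and 0.719 without that library). CLDN4 was nearest to ATP13A2 (r = 0.952) and SLURP1 (r = 0.95), a secreted protein of squamous epithelium. CLDN5 was nearest to HIC1 (r = 0.991) and NRF1 (r = 0.99), and TJP1 to PBRM1 (r = 0.99) and NEDD4 (r = 0.985). CLDN7 was nearest to RPP25L (r = 0.934) and SCO2 (r = 0.903), and CLDN8 to CCDC149 (r = 0.97) and SCAMP4 (r = 0.964). CLDN10 was nearest to PELI3 (r = 0.952) and MPP1 (r = 0.949). The pattern most like CLDN11 was that of IGHM (r = 0.972), the heavy chain of immunoglobulin M, at 27.7, 42.9 and 6.72 TPM, ahead of HDAC11 (r = 0.962). Without NP replicate 1 the first of these genes kept an r of at least 0.9 for CLDN1, CLDN5, CLDN7, CLDN10, CLDN11 and TJP1 and ranked among the first 7 genes. For CLDN8 it was 0.924, but CCDC149 and SCAMP4 ranked 94th and 154th of the 9409 genes. The r was 0.878 for CLDN4 (29th) and 0.805 for CLDN3 (116th).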

How the data were processed

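Poly(A) RNA of 10 cervices was sequenced with strand-specific single reads on an Illumina HiSeq and read with CASAVA 1.8.2. The authors aligned the reads to the guinea pig genome (cavPor3.69) with TopHat2 and counted them per Ensembl gene with HTSeq-count 0.5.4p1. The deposited table holds these read counts and the TPM values that the authors made from them, and both were used as deposited. All 20 value columns belong to 1 of the 10 animals by name.

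Genes were matched by the table's gene names. Differences were tested with limma 3.58.1 (trend, R 4.3.3) on log2(TPM + 1), in 1 fit with stage as the only term, for the 12645 genes whose mean reached 3 TPM in any stage, two-sided, with Benjamini-Hochberg adjustment. Fold changes on this scale understate the change of genes of low abundance. Exact two-sided permutation tests used square-root TPM (shares and ratios were used untransformed) and were not adjusted over the 27 comparisons of the 9 genes or the 111 of shares and ratios. With 3 animals against 3 they cannot give a P below 0.1. The alternatives were a pseudocount of 0.1, square-root TPM, a filter at 1 TPM or none, median-ratio and quantile scaling, edgeR 4.0.16 (quasi-likelihood, TMM, 14263 genes) and DESeq2 1.42.0 on the counts, only the stages compared, the replicate number as a block, and each animal left out. Fits of edgeR and of median-ratio scaling without NP replicate 1 were chosen after seeing the data. The scripts were tested on simulated data.

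The genes, the lists of other tight junction genes and of cell type markers, and the rules for naming genes were chosen with earlier results of these data known. The named genes are all members, up to 4 other tight junction genes per direction and comparison with the largest change among those called, the 2 nearest genes to each member, and the first markers of each list. One gene that this rule names is not reported here. LSR, F11R, CXADR, IGSF5, CLMP, CLDN12, CLDN16, CLDN17, ILDR2 and some values of genes named in another comparison were added after their values were seen. The guinea pig animals are separate individuals. Counted reads per animal set the precision: at 18730665 reads or more, the members rest on 28 to 44652 reads except CLDN8 in NP replicate 1 with 8.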

Additional observations from a re-analysis of the deposited data

How the results depend on the processing

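The rise of CLDN1 from NP to MT and from NP to LT and the falls of CLDN5 and TJP1 from NP to LT passed under all 25 alternatives. The members' 27 differences gave 675 alternative values, of which 570 kept direction and side of the threshold, 41 lost a call, 38 gained one and 26 changed sign. The cause was not tested for the changes below. CLDN1 from MT to LT turned to 0.15 with median-ratio scaling (with and without NP replicate 1), with edgeR and DESeq2, to 0.14 with DESeq2 size factors in edgeR and with the edgeR block, to 0.17 without a filter in edgeR, and to 0.15 with edgeR without NP replicate 1. It was -0.15 to 0.16 when 1 animal was left out. CLDN4 from NP to LT turned to 0.0055 with median-ratio scaling, and without NP replicate 1 to 0.33 with that scaling and 0.38 with edgeR. CLDN8 from NP to LT was -0.10 on square-root TPM, -0.0458, -0.0402 and -0.0012 with edgeR (TMM, size factors, no filter), -0.0361 with DESeq2, -0.85 to 0.62 with 1 animal left out, and without NP replicate 1 -0.58 with edgeR and -0.53 with median-ratio scaling. With 1 animal left out CLDN7 ranged from -0.0641 to 0.42 from NP to MT and from -0.0051 to 0.48 from MT to LT, and CLDN8 from -0.0243 to 1.45 from NP to MT.

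Of the 9 members, 1 was called from NP to MT with median-ratio scaling, in 3 edgeR fits, with DESeq2 and with only the stages compared. From MT to LT 0 were called with median-ratio scaling and in 3 edgeR fits, 3 with DESeq2, 5 with only the stages compared, and 4 without NP replicate 1 in both added fits, which called 5 from NP to LT. Leaving out 1 animal gave 1 to 5, 1 to 5 and 3 to 5 members over the 3 comparisons, each highest without NP replicate 1, and 5 to 13, 4 to 16 and 21 to 28 other tight junction genes. It gave 1100 genes (without MT replicate 3) to 4174 (without NP replicate 1) from NP to MT and 1946 (without MT replicate 2) to 5323 (without NP replicate 1) from MT to LT. With only the stages compared, 1113 genes, and 3 other tight junction genes, were called from NP to MT and 16 of the latter from MT to LT.

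The labels pair no animals by replicate number. Deviations from the stage means had r of -0.29 to 0.25 between animals with one number, over the 9 pairs. With 3 or 4 animals per stage such r cannot exclude that animals of one number were handled together. With the replicate number as a block, limma called 1577 and 1693 genes, 1 and 1 members and 6 and 5 other genes from NP to MT and from MT to LT, and edgeR 1632 and 1907, 1 and 0, and 6 and 4. Depth limits CLDN8 and CLDN3 in NP replicate 1 (8 and 28 reads).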

Other observations

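CLDN17, a claudin that forms anion pores, was found in the NP animals alone. It had 5.85 TPM (91 reads) in NP replicate 1, 1.32 TPM (15 reads) in replicate 2 and 0.156 TPM (2 reads) in replicate 3, and 0 reads in each of the MT and LT libraries, where a count of 0 allows up to 3 reads. Its NP mean was below 3 TPM, so it was not tested by limma, and its highest value was in the library with the most squamous markers among the NP animals. CLDN16 had means of 0.44, 1.55 and 1.85 TPM in NP, MT and LT, below the threshold in every stage, with no overlap between NP (0.244 to 0.742 TPM) and MT (1.28 to 2.06 TPM). With edgeR, which tested it, CLDN16 was higher by 1.95 from NP to MT (adjusted P = 0.0132) and by 2.39 from NP to LT (adjusted P = 0.00132). CLDN17 and CLDN16 were chosen after their values were seen.

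Of the markers of other cell types, those of leukocytes (6 tested) had 0 called from NP to MT, 1 higher from MT to LT, and 1 higher and 1 lower from NP to LT, and without NP replicate 1 these were 3 lower, 2 higher, and 1 higher and 3 lower. The 8 smooth muscle markers had 0, 1 and 1 called, all higher, and without NP replicate 1 these counts were 0, 4 and 6. The 7 fibroblast markers had 1 lower, 1 higher and 2 lower, and 2 lower, and without that library 3 lower, 3 higher and 2 lower, and 2 lower. Of 4 tested markers of mesothelium and neural sheath, 0 were called from NP to MT and 1 was higher and 1 lower in each of the other comparisons. Their summed TPM in an animal did not exceed 30.7.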
